A study of Mus musculus with 11 samples.

Results

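Secreted and membrane-bound modulators of Wnt signalling were followed in sorted epithelial cells of mouse mammary outgrowths. The 9 genes, taken as a list of known modulators, were Wif1, Sfrp1, Sfrp2, Sfrp4, Frzb, Dkk2, Dkk3, Kremen1 and Rspo1, of 20145 named genes on the array. They were found through the RefSeq accession of each probe and had 10 probes, with 2 for Kremen1. Of the 9 genes, 7 lay well above background, by the scanner software's own call, on at least 3 of 11 arrays and entered the fit across all features. Frzb and Dkk2 did not.

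Mouse mammary epithelial cells were transduced with a lentivirus that carried a short hairpin against Ror2, a receptor of non-canonical Wnt signalling, or a control hairpin against luciferase, and were injected to grow into outgrowths. Basal and luminal cells were then separated by the surface markers CD24 and CD29. The groups were basal shROR2 (3 arrays), basal shLUC (3), luminal shROR2 (2) and luminal shLUC (3). A further luminal shROR2 sample is not analysed here. All groups share the transduction, the injection and the sort. The labels call the samples biological triplicates, give no strain, promoter or age of the mice, and do not say which arrays came from the same outgrowth, so p-values measure the spread between these arrays.

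Wnt proteins bind Frizzled receptors and the co-receptors Lrp5 and Lrp6, and in the canonical branch they stabilise beta-catenin. Secreted Frizzled-related proteins (the Sfrp genes and Frzb) and Wif1 bind Wnt proteins outside the cell. Dickkopf proteins such as Dkk2 bind Lrp5 and Lrp6, with Kremen1 as a membrane partner, and Dkk3 is a divergent member of that family. R-spondins such as Rspo1 bind Lgr receptors and the ligases Rnf43 and Znrf3, which keeps Frizzled receptors on the membrane and strengthens the Wnt signal. In the mammary gland, Wnt signalling is known for its role in basal stem cells and in ductal branching.

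The promoters of Wif1 and Sfrp2, which were higher in basal cells, and of Rspo1, which was lower there, are shown because these genes mark the opposite sides of the comparison below. RefSeq promoter sequence (GRCm38.p6) was matched for 5 of the 9 genes, namely Wif1, Sfrp2, Frzb, Dkk2 and Rspo1. The windows shown end at the base before the annotated start. They are chr10:121033754-121034003 (plus strand) for Wif1, chr3:83766071-83766320 (plus strand) for Sfrp2 and chr4:124986180-124986429 (plus strand) for Rspo1. Capitals mark matches to the motifs searched on both strands. These were CTTTGAA and CTTTGAT (the core bound by TCF and LEF factors), CACCTG (an E-box) and TATAAA.
Wif1: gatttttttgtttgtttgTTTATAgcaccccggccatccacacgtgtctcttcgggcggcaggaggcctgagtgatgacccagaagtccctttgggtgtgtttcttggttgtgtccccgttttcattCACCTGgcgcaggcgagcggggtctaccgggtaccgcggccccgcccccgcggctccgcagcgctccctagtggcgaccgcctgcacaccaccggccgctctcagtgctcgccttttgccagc
Sfrp2: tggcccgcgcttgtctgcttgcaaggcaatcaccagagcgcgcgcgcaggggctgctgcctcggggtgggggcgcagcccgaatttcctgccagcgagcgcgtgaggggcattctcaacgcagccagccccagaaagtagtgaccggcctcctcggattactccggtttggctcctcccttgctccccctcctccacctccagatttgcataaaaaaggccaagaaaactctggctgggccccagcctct
Rspo1: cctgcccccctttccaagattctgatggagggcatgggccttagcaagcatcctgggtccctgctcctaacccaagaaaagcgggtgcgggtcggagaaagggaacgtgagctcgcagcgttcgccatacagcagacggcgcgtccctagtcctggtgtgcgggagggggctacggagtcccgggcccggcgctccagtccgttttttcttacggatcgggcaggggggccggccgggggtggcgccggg
The Wif1 window held CACCTG 123 bases before the start and TATAAA on the opposite strand (read as TTTATA) 232 bases before it. The windows of Sfrp2 and Rspo1 held none of the 4 motifs. Among 32851 mouse promoter windows of the same length, CACCTG occurred in 17.2%, TATAAA in 12.4%, CTTTGAA in 4.46% and CTTTGAT in 3.21%. The share of G and C bases was 62.8% for Wif1, 63.6% for Sfrp2 and 66.8% for Rspo1, against a median of 52.4% over all windows.

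On the 11 arrays, 52.8% to 59.5% of the probes exceeded background, and 0 spots were saturated. Replicate arrays correlated at 0.941 to 0.953 in basal shROR2, at 0.976 to 0.982 in basal shLUC, at 0.983 in luminal shROR2 and at 0.981 to 0.983 in luminal shLUC. The basal shROR2 arrays thus stood further apart than those of the other groups. Every group had 1 or 2 arrays on each of 2 slides, so values for a single slide only describe those arrays. The probe of Ror2, the gene the hairpin targets, gave processed signals (background-corrected fluorescence, in arbitrary units) of 16.8, 3.03 and 6.93 in basal shROR2 and 11.1, 12.1 and 10.1 in basal shLUC. In luminal cells it gave 3.54 and 8.47 with shROR2 and 3.14, 3.44 and 3.48 with shLUC. It lay well above background on 1 array alone, the array labelled basal shROR2 replicate 1. So near background, the probe can neither show whether Ror2 was reduced nor test that label. The differences that use basal shROR2 are also given without that array below. The labelled layers carried their markers: 7 of 8 myoepithelial markers were higher and 8 of 8 luminal markers lower in basal than in luminal cells with either hairpin.

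Basal cells carried more message for 5 of the modulators than luminal cells, and luminal cells carried more for 1. The 5 were Wif1, Sfrp1, Sfrp2, Dkk3 and Kremen1, with the widest fitted gap for Wif1, and Rspo1 ran the other way. The same 6 genes passed the test with either hairpin, at a Benjamini-Hochberg adjusted p under 0.05 in limma over 29429 features. With shROR2, 5 of the 7 genes tested were higher and 1 lower, where 22.8% of all features were called, 10.6% higher and 12.3% lower. With shLUC, again 5 were higher and 1 lower, where 27.0% of all features were called, 13.7% higher and 13.3% lower. Wif1 and Sfrp1 entered the fit through the basal arrays alone, and Dkk3 mostly through them, so these genes had to differ. Of the 4 genes well above background on every array (Sfrp2, Sfrp4, Kremen1 and Rspo1), 3 were called in either comparison, against 23.3% of such features with shROR2 and 28.7% with shLUC.

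Among the proteins that bind Wnt directly, Wif1 (Wnt inhibitory factor 1) had processed signals of 455, 440.5 and 534 in basal shROR2 and 480, 591 and 541 in basal shLUC. In luminal cells it gave 2.71 and 2.87 with shROR2 and 2.55, 2.73 and 2.84 with shLUC. All 6 basal arrays lay far above all 5 luminal arrays, none of which was well above background. The fitted log2 difference, basal minus luminal, was 7.47 with shROR2 (adjusted p = 1.75e-08 in limma) and 7.56 with shLUC (adjusted p = 3.79e-09). These p-values rest on luminal signals at background and on a gene that had to differ, so they give no separate support. Against the lowest signal that counted as well above background, Wif1 was at least 35.9-fold higher in basal than in luminal cells with shROR2. With shLUC it was at least 38.5-fold higher. For such bounds, signals of the dimmer group under the lowest signal well above background on their array were raised to it. That lowest signal, over all probes of an array, was 10.8 to 14.2 on the 11 arrays. Dim signals above it were kept, such as 17.5 for Sfrp1 in luminal shROR2 replicate 1. The limit is thus a lenient one, and the bounds hold by that measure only.

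Sfrp1, a secreted Frizzled-related protein, gave 60.9, 68.9 and 24.9 in basal shROR2 and 76.1, 91.9 and 90.7 in basal shLUC. Luminal signals were 17.5 and 9.39 with shROR2 and 9.24, 13.9 and 10.1 with shLUC, none well above background. The layers did not overlap, although basal shROR2 replicate 3 came closer to the luminal arrays than any other basal array. Sfrp1 was at least 3.09-fold higher in basal cells with shROR2 and at least 6.12-fold higher with shLUC. The fitted log2 difference was 1.93 with shROR2 (adjusted p = 0.0108 in limma) and 2.91 with shLUC (adjusted p = 0.000525). Those p-values likewise rest on luminal signals at background, for a gene that had to differ. The call with shROR2 was lost without luminal shROR2 replicate 2 (log2 difference 1.52, adjusted p = 0.0993) and when only the 2 groups compared were fitted (1.93, adjusted p = 0.109).

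Sfrp2, of the same family, was measured on every array in both layers. Its signals were 696, 630.5 and 701 in basal shROR2 and 703, 663 and 747 in basal shLUC. They were 337 and 318 in luminal shROR2 and 206, 219 and 256 in luminal shLUC. The basal arrays of either hairpin formed a tight band, and the luminal arrays lay below it in 2 separate steps. The log2 difference, basal minus luminal, was 1.10 ± 0.14 (SE) with shROR2 (adjusted p = 0.000713) and 1.57 ± 0.13 with shLUC (adjusted p = 2.89e-05).

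Sfrp4 was the member of the family that did not separate the layers. Its signals were 34.7, 28.4 and 20.4 in basal shROR2, 44.8, 48.9 and 30.2 in basal shLUC, 32.3 and 26.5 in luminal shROR2 and 35.5, 37.6 and 24.5 in luminal shLUC. The arrays of the 4 groups overlapped. The log2 difference, basal minus luminal, was -0.05 with shROR2 (95% interval -0.70 to 0.59) and 0.27 with shLUC (-0.30 to 0.84), so a difference of up to about these bounds could be present. Frzb, the remaining Frizzled-related gene, gave signals of 2.84 to 8.28 over the 11 arrays and was not well above background on any.

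Dkk3 gave 228, 245 and 186 in basal shROR2 and 302, 350.2 and 355 in basal shLUC. In luminal cells it gave 18.7 and 7.71 with shROR2 and 4.06, 26.2 and 7.06 with shLUC, well above background on 1 of 2 and 1 of 3 arrays. Every basal array lay far above every luminal array, and the luminal arrays scattered widely among themselves. The fitted log2 difference, basal minus luminal, was 4.24 ± 0.66 with shROR2 (adjusted p = 0.00185) and 5.14 ± 0.59 with shLUC (adjusted p = 0.000249). Its size rests partly on luminal signals at background: it was 3.64 without luminal shROR2 replicate 2 and 4.84 without luminal shROR2 replicate 1, and with shLUC it was 5.90 without luminal shLUC replicate 2.

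Kremen1, the membrane receptor of Dickkopf proteins, gave 351, 434 and 352 in basal shROR2 and 451, 627 and 545 in basal shLUC. Luminal signals were 159 and 133 with shROR2 and 135, 116 and 137 with shLUC. The layers were well separated and the luminal arrays of the 2 hairpins intermixed. The log2 difference, basal minus luminal, was 1.43 ± 0.16 with shROR2 (adjusted p = 0.000259) and 1.99 ± 0.14 with shLUC (adjusted p = 1.18e-05). The second, dimmer Kremen1 probe gave 26.7, 27.9 and 32.5 in basal shROR2 and 12.6, 34.4 and 29.1 in basal shLUC, and it was not well above background on any luminal array. That probe entered a fit of every probe through basal arrays alone, so it had to differ there and gives no separate support for the Kremen1 difference.

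Dkk2, whose protein binds Lrp6, was not well above background on any array. Its signals were 12.6, 2.83 and 4.67 in basal shROR2 and 9.71, 6.67 and 6.81 in basal shLUC, and they were 2.78 to 3.16 over the 5 luminal arrays. The 3 basal shLUC arrays lay above the 3 luminal shLUC arrays, at an exact two-sided permutation p of 0.1, the smallest that 3 arrays against 3 can give. At these signals a level cannot be told from background.

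Rspo1, the agonist of the list, was the gene with more message in luminal cells. Its signals were 38.6, 94.1 and 36.5 in basal shROR2 and 23.0, 37.5 and 16.6 in basal shLUC. They were 383 and 384 in luminal shROR2 and 459, 520 and 432 in luminal shLUC. The layers did not overlap, and the basal arrays, all well above background, varied more than the luminal ones. Rspo1 was lower in basal than in luminal cells, with a log2 difference of -2.86 ± 0.41 with shROR2 (adjusted p = 0.00113) and -4.34 ± 0.37 with shLUC (adjusted p = 3.33e-05).

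**Figure D1:**
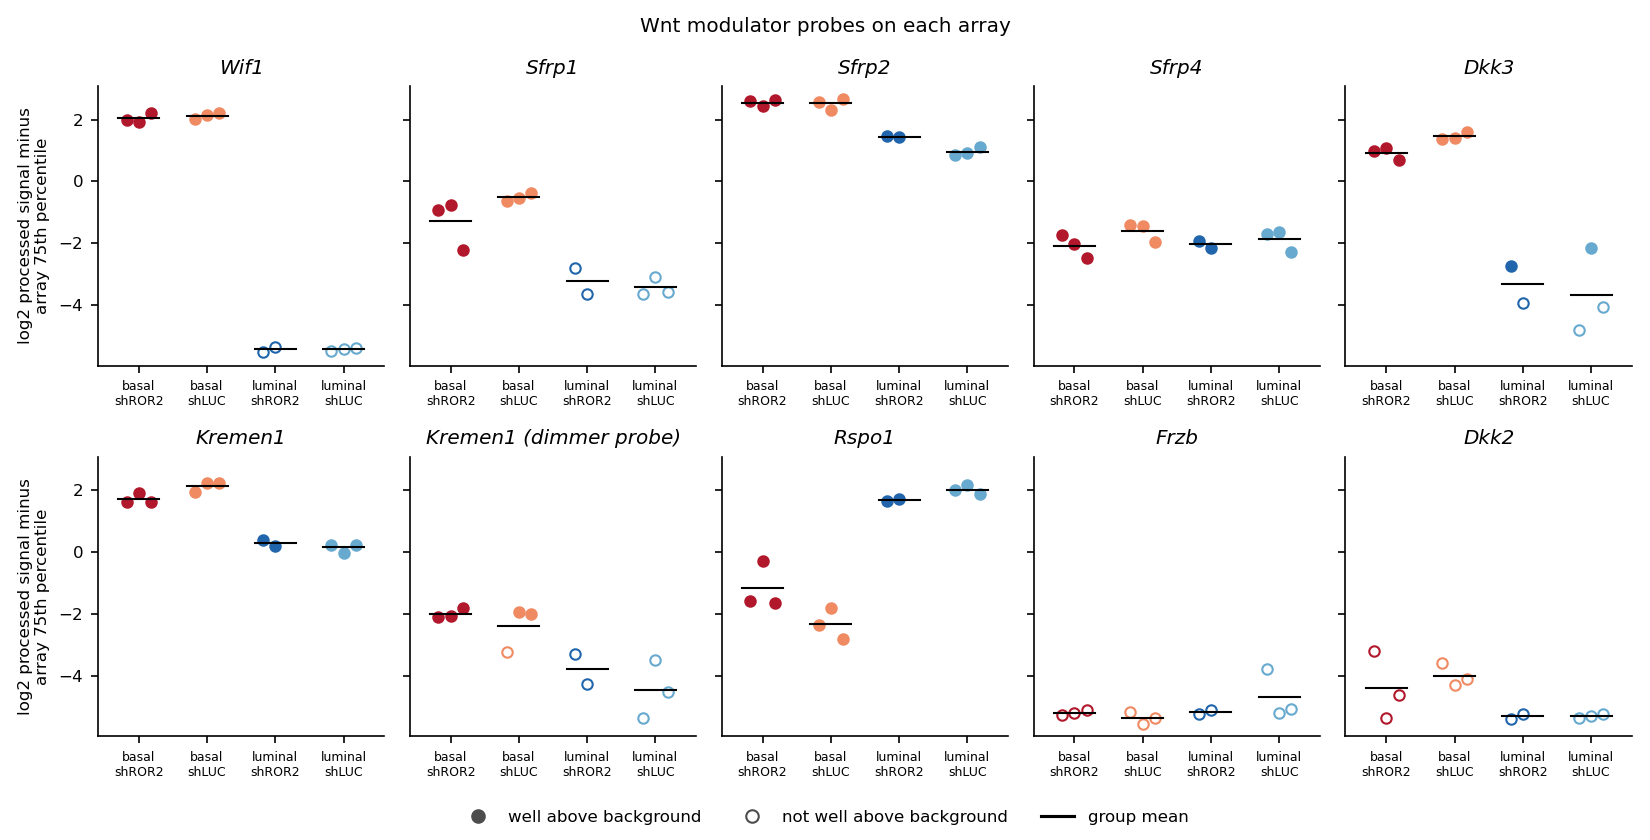
Scaled log2 signal, centred on each array's 75th percentile (vertical axis), for the 10 probes of the 9 genes on each of 11 arrays. Groups run from basal shROR2 to luminal shLUC, filled points are well above background, open points are not, and bars are group means. Wif1, Dkk3, Sfrp1, Sfrp2 and Kremen1 are higher in basal cells, Rspo1 is lower, and all points of Frzb and Dkk2 are open.

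**Figure D2:**
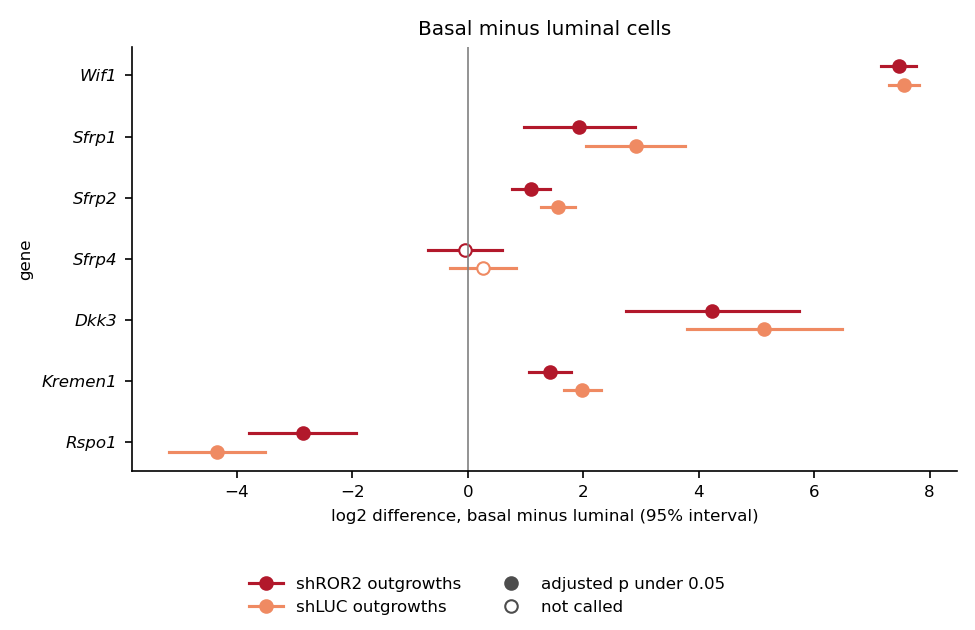
Log2 difference, basal minus luminal (horizontal axis), with its 95% interval for the 7 genes in the fit, in shROR2 outgrowths (upper of each pair) and shLUC outgrowths (lower). Filled points passed the test at an adjusted p under 0.05, and the points of Sfrp4 alone are open. The values for Wif1 (7.47 and 7.56) and Sfrp1 (1.93 and 2.91) are fitted from luminal signals that were not well above background.

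The size of these differences depended on how background was treated. In the authors' value table, whose lowest value was 52.5, the basal minus luminal difference of Wif1 was 3.22 with shROR2 and 3.14 with shLUC, that of Dkk3 1.73 and 2.11, that of Sfrp1 0.53 and 0.88, and that of Rspo1 -1.75 and -2.49. All 4 genes kept their direction and their call there. Without basal shROR2 replicate 1, the basal minus luminal difference with shROR2 was 7.50 for Wif1, 1.74 for Sfrp1, 1.08 for Sfrp2, -0.23 for Sfrp4, 4.21 for Dkk3, 1.48 for Kremen1 and -2.65 for Rspo1, and the same 6 genes were called. RNA of other cell types also differed between the sorted layers, and in bulk RNA fewer cells of a type and less RNA per cell cannot be told apart. The 9 fibroblast markers summed to 56.3 to 72.4 in basal shROR2 and 60.7 to 66.2 in basal shLUC, in units of the 75th percentile of each array, against 11.3 to 11.9 in luminal shROR2 and 6.59 to 6.74 in luminal shLUC. Lum, Pdgfra, Fbn1 and Postn of that list were not well above background on any luminal array. Sfrp2 and Dkk3 are also known as genes of fibroblasts, and the part of these cells in the basal values was not tested.

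Whether the layers differed by another amount with shROR2 than with shLUC was tested as the difference of the hairpin effects. None of the 7 genes passed in limma, and 0% of all features did. At an unadjusted p under 0.05 there were 3 genes, where 8.29% of all features passed: Rspo1 (1.48 ± 0.55, adjusted p = 0.542), Kremen1 (-0.56 ± 0.21, adjusted p = 0.542) and Sfrp2 (-0.47 ± 0.19, adjusted p = 0.578). For these 3 genes the gap between the layers was narrower with shROR2 in the fitted values. For Wif1 and Sfrp1, which were not well above background on any luminal array, a change of the gap could not be measured.

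Between the hairpins in luminal cells, none of the 7 genes passed the test in limma, where 0.00340% of all features were called, and 1 gene did at an unadjusted p under 0.05, where 5.55% did. That gene was Sfrp2, at 337 and 318 in shROR2 against 206, 219 and 256 in shLUC. Both shROR2 arrays lay above the 3 shLUC arrays. The log2 difference was 0.50 ± 0.14 (95% interval 0.17 to 0.82), and its adjusted p was 0.600. It was 0.60 on slide 1 and 0.44 on slide 2, and 0.44 to 0.57 when any single array was left out.

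Rspo1 was lower on both luminal shROR2 arrays, at 383 and 384, than on the 3 luminal shLUC arrays, at 459, 520 and 432. The log2 difference was -0.33 ± 0.41, and its interval ran from -1.26 to 0.60. That wide interval carries the spread of the basal arrays, with which the fit shares its error. Arrays that did not overlap were found for 1 higher and 1 lower gene, where 14.4% of all features did not overlap on the higher side and 14.6% on the lower.

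Kremen1 differed by 0.14 between the hairpins in luminal cells (95% interval -0.22 to 0.50) and Sfrp4 by -0.17 (-0.81 to 0.47). Wif1 and Sfrp1 were not well above background on any luminal array, so no difference could be measured. Dkk3 was well above background on 1 luminal array of each hairpin, and its log2 difference was 2.10 on slide 1 and -0.80 on slide 2. The sign of Dkk3 in luminal cells thus turned from slide to slide.

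Between the hairpins in basal cells, the intervals of Wif1 and Sfrp2 were narrow and held 0. Wif1 differed by -0.09 ± 0.12 (95% interval -0.36 to 0.18) and Sfrp2 by 0.02 ± 0.13 (-0.27 to 0.32), shROR2 minus shLUC. None of the 7 genes passed the test in limma, where 0.965% of all features were called. At an unadjusted p under 0.05 there were 2 genes, Rspo1 and Kremen1, where 15.8% of all features passed.

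Rspo1 gave 38.6, 94.1 and 36.5 in basal shROR2, against 23.0, 37.5 and 16.6 in basal shLUC. The processed signals of 36.5 and 37.5 overlap, and after scaling to the 75th percentile the groups no longer did. The log2 difference was 1.15 ± 0.37 (95% interval 0.32 to 1.98, adjusted p = 0.180). It was 0.97 on slide 1 and 1.52 on slide 2, and 0.72 without basal shROR2 replicate 2, the array with the highest value. In the authors' value table it was 0.39 (adjusted p = 0.202).

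The summed markers of luminal cells, in which Rspo1 was high, were also higher in basal shROR2, though not every marker was. The 8 luminal markers summed to 68.6, 90.3 and 68.4 in basal shROR2, against 62.5, 60.0 and 58.8 in basal shLUC. Of the basal arrays, the one with the highest Rspo1 value, basal shROR2 replicate 2, also had the highest luminal sum. Of the 8 markers, 5 had a higher fitted value in basal shROR2 and 3 a lower one, and none was called. Krt18 gave 4193, 5564 and 4236 in basal shROR2 against 3522, 3784 and 3373 in basal shLUC. Krt8 gave 548, 543 and 412 against 558, 655 and 506. The part of luminal RNA in the Rspo1 value was not tested.

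Kremen1 gave 351, 434 and 352 in basal shROR2, against 451, 627 and 545 in basal shLUC. All 3 shROR2 arrays lay below the 3 shLUC arrays. The log2 difference was -0.42 ± 0.14 (95% interval -0.74 to -0.10), with an adjusted p of 0.201, and it was -0.47 on slide 1 and -0.34 on slide 2. The dimmer probe of the gene pointed the other way, at 0.40 ± 0.50 (adjusted p = 0.753), and the mean over both probes differed by -0.01.

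Sfrp1 and Dkk3 were likewise lower on every basal shROR2 array than on every basal shLUC array, without passing the test. Sfrp1 differed by -0.79 ± 0.38 (95% interval -1.64 to 0.07, adjusted p = 0.357) and by -0.33 without basal shROR2 replicate 3, where its signal was 24.9. Dkk3 differed by -0.53 ± 0.59 (95% interval -1.88 to 0.81, adjusted p = 0.713). The standard deviation of its log2 values was 0.19 in basal shROR2 and 0.13 in basal shLUC, against 0.85 in luminal shROR2 and 1.37 in luminal shLUC, and the shared error of the fit holds all 4. Over 11 other ways of processing, the adjusted p of Dkk3 in limma ran from 0.0762 (normexp background correction) to 0.873.

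Sfrp4 differed by -0.49 ± 0.25 (95% interval -1.06 to 0.08, adjusted p = 0.392), and its groups overlapped. In all, arrays did not overlap for 1 higher gene, Rspo1, and 3 lower ones, Sfrp1, Dkk3 and Kremen1, where 6.73% of all features did not overlap on the higher side and 11.7% on the lower. Without basal shROR2 replicate 1 the differences were 1.36 for Rspo1, -0.97 for Sfrp1, -0.67 for Sfrp4, -0.57 for Dkk3, -0.37 for Kremen1, -0.06 for Wif1 and 0.00 for Sfrp2, and none of the 7 genes passed.

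**Figure D3:**
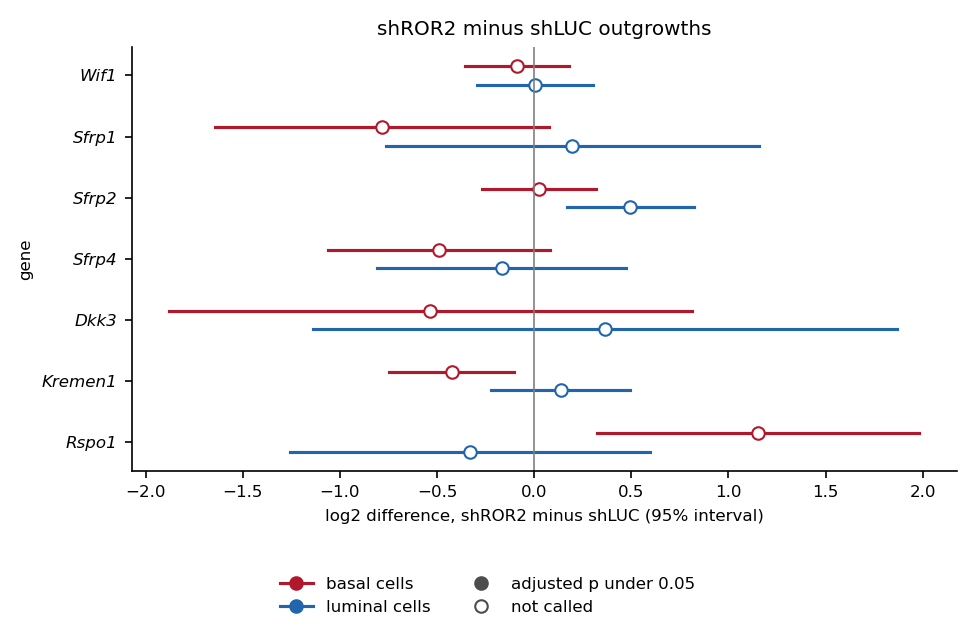
Log2 difference, shROR2 minus shLUC (horizontal axis), with its 95% interval for the 7 genes in the fit, in basal cells (upper of each pair) and luminal cells (lower). All points are open because none passed the test at an adjusted p under 0.05. The intervals of Rspo1 and Kremen1 in basal cells and of Sfrp2 in luminal cells lie to one side of 0 before adjustment.

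Summed marker signals of other cell types were also unequal between the hairpins. In luminal cells the fibroblast markers summed to 11.3 and 11.9 in shROR2, against 6.59 to 6.74 in shLUC. Of the 9, 8 had a higher fitted value in shROR2 and none was called, where 0.00340% of all features were. Lum, Pdgfra, Fbn1 and Postn of that list were not well above background on any luminal array, so their direction cannot be read. Dcn had the largest signal, at 796 and 813 in luminal shROR2 against 397, 449 and 427 in luminal shLUC. Sfrp2 had its higher luminal values on the luminal shROR2 arrays too. Leukocyte markers summed to 86.0 to 94.8 in basal shROR2 against 57.7 to 60.9 in basal shLUC, and to 105 to 107 in luminal shROR2 against 83.5 to 84.6 in luminal shLUC. In basal cells Cd74 gave 3222, 4121 and 4022 in shROR2 against 1457, 1858 and 1669 in shLUC, and H2-Ab1 also rose. The arrays of Ptprc overlapped, at 40.9, 64.3 and 47.0 against 51.8, 63.5 and 41.7. Those of Csf1r overlapped too, at 4392, 3700 and 3896 against 4132, 4661 and 3980. Endothelial markers summed to 35.5 to 44.7 in basal shROR2 against 19.2 to 24.1 in basal shLUC, and to 13.2 to 13.6 in luminal shROR2 against 10.7 to 11.5 in luminal shLUC. In basal cells all 6 had a higher fitted value in shROR2. Plvap gave 1984, 2574 and 3069 against 1156, 850 and 1146, while the arrays of Kdr overlapped, at 1129, 1447 and 1254 against 1186, 1201 and 1222. Adipocyte markers summed to 43.5 to 53.9 in basal shROR2 against 22.3 to 25.1 in basal shLUC, and to 10.8 to 12.7 in luminal shROR2 against 5.43 to 6.94 in luminal shLUC. Of that list, Fabp4 had by far the largest signal, so these sums mostly show that gene. Fabp4 gave 4983, 6231 and 5025 in basal shROR2 against 2924, 2896 and 2644 in basal shLUC. Lep was not well above background on any array, and Adipoq and Cfd were not on any basal shROR2 or luminal array. Pericyte markers summed to 5.02 to 6.64 in basal shROR2 against 3.50 to 4.12 in basal shLUC, and to 1.40 to 2.00 in luminal shROR2 against 0.764 to 1.01 in luminal shLUC. Rgs5 had by far the largest signal of the pericyte list, so these sums mostly show Rgs5. The basal arrays of Cspg4 overlapped, at 23.1, 27.4 and 25.3 in shROR2 against 23.5, 26.4 and 23.7 in shLUC. Of the markers in the fit, 2 of 6 endothelial, 2 of 6 leukocyte, 1 of 2 adipocyte and 0 of 4 pericyte ones were called higher in basal shROR2. Over all features, 0.965% were called there in either direction. None of these lists had a called marker in luminal cells, where 0.00340% of all features were called. The part of these cells in the hairpin values of the listed genes was not tested.

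**Figure D4:**
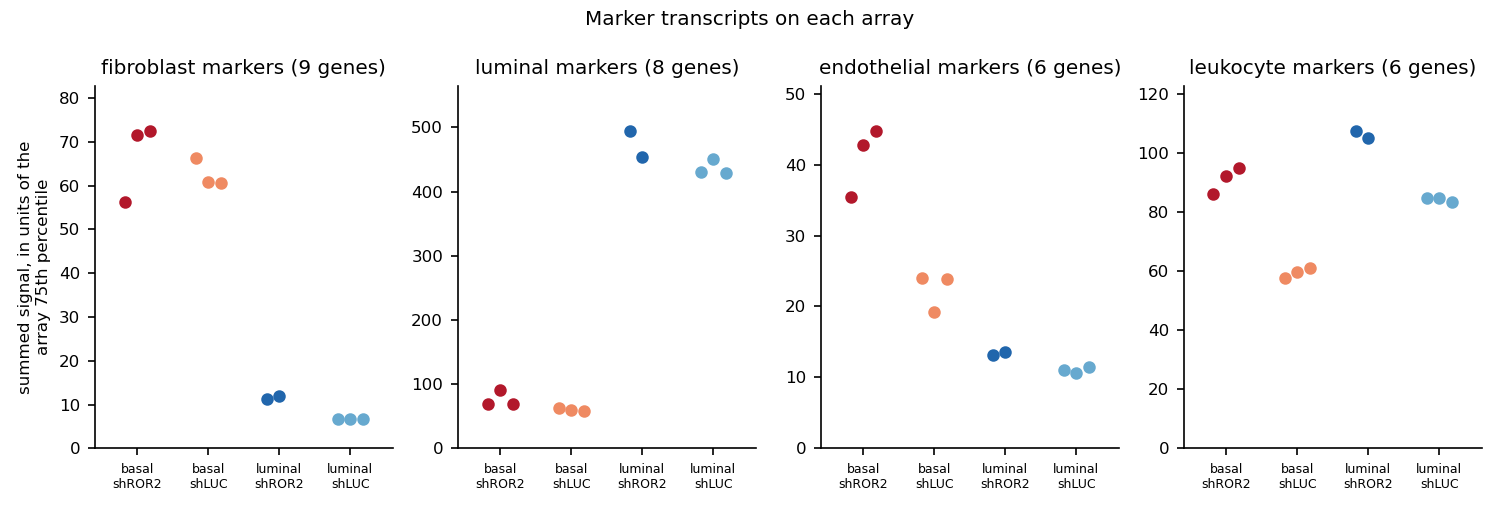
Summed signal of fibroblast (9 genes), luminal (8), endothelial (6) and leukocyte (6) markers on each of 11 arrays, in units of the 75th percentile of the array (vertical axis, which starts at 0). Each point is an array, and groups run from basal shROR2 to luminal shLUC. Endothelial and leukocyte sums are higher in shROR2 in either layer, and luminal sums of basal cells are highest in basal shROR2 replicate 2.

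The shape of each profile over the 11 arrays was compared with every named gene in the fit, as the root mean square difference of log2 values centred on their own mean. The layers set most of each profile, so the values are a description. Luminal signals of Wif1 and Sfrp1, and most of those of Dkk3, were not well above background. The spans of these profiles thus rest partly on background. Whether their closest genes stay the same under another background treatment was not tested. Wif1 was closest to Krt5, the basal keratin 5, at 0.19, and to Cnn1, the smooth muscle protein calponin 1, at 0.23, in a profile that spanned 7.73. Sfrp2 was closest to Man2a1 (0.11) and Tspan3 (0.14), Kremen1 to Iffo2 (0.12) and Gm4907 (0.15), and Sfrp4 to Dppa4 (0.15) and Lamtor3 (0.16). Sfrp1 was closest to B4galt6 and Rgs12 (0.38 each), and Dkk3 to Ppp2r2b (0.40) and Ngfr (0.43). Rspo1 was closest to Ly6d (0.41) and to Cldn4 (0.42), which encodes a claudin of epithelial tight junctions. Among the listed genes themselves, Kremen1 and Sfrp2 were the closest pair, at 0.32.

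The rest of the pathway was set beside these genes through 4 lists, of which Lgr5, Apcdd1, Notum, Rnf43 and Znrf3 stand in 2. Their counts are read against the share of all features called between the layers, 10.6% higher and 12.3% lower with shROR2 and 13.7% higher and 13.3% lower with shLUC. Genes dim in luminal cells, such as Sostdc1, Gpc3, Lgr5 and Nkd1, entered the fit through basal arrays alone and had to differ. Counts are thus also given for genes well above background on every array. Of all such features, 23.3% were called in either direction with shROR2 and 28.7% with shLUC. Of 23 other secreted or membrane modulators, 15 were in the fit. Between basal and luminal cells, 6 were higher and 1 lower with shROR2, and 8 were higher and 1 lower with shLUC. Of the 9 above background on every array, 2 were higher and 1 lower with shROR2, and 4 were higher and 1 lower with shLUC. Sostdc1, a secreted antagonist that binds Lrp5 and Lrp6, was at least 15.6-fold higher in basal cells with shROR2 and at least 14.5-fold higher with shLUC. The glypican gene Gpc3 was at least 9.69-fold and at least 13.4-fold higher. Gpc4 was higher by 1.55 ± 0.13 on the log2 scale with shLUC, and Dkkl1 was the lower one, at -1.76 ± 0.19 with shROR2.

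Of 19 receptors and co-receptors, 18 were in the fit, and 12 were higher and 0 lower in basal cells with either hairpin. Of the 12 above background on every array, 7 were higher with shROR2 and 8 with shLUC. Lgr5, a receptor of R-spondins, was at least 12.6-fold higher in basal cells with shROR2 and at least 15.4-fold higher with shLUC. Lgr4, another of these receptors, was higher by 2.33 ± 0.13 on the log2 scale with shROR2 and by 2.80 ± 0.12 with shLUC. Rspo1 was thus higher in luminal cells and its receptors Lgr4 and Lgr5 in basal cells. Fzd1 was higher by 1.45 ± 0.13 with shROR2 and by 1.88 ± 0.12 with shLUC, Fzd7 by 2.33 ± 0.22 with shROR2, and Ptk7 by 1.54 ± 0.11 with shLUC.

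Of 19 Wnt ligands, 14 were in the fit. In basal cells, 2 were higher and 2 lower with shROR2, and 3 were higher and 3 lower with shLUC, close to the shares over all features with shROR2. Of the 8 above background on every array, 1 was higher and 2 lower with shROR2, and 2 were higher and 3 lower with shLUC. Wnt10a was higher by 6.77 ± 0.80 on the log2 scale with shROR2 and by 7.03 ± 0.71 with shLUC, from luminal signals that were well above background on 1 of 2 and 2 of 3 arrays. Wnt11 was higher by 0.73 ± 0.15 with shROR2 and by 0.97 ± 0.13 with shLUC. Wnt5b was lower, at -1.50 ± 0.24 with shROR2 and -1.75 ± 0.21 with shLUC. Wnt4 was lower with shROR2 (-1.30 ± 0.24) and Wnt7b with shLUC (-2.64 ± 0.37). Of 16 targets of beta-catenin, 14 were in the fit, and 7 were higher and 0 lower in basal cells with either hairpin. Of the 9 above background on every array, 4 were higher with shROR2 and 5 with shLUC. Nkd1, an intracellular Wnt feedback inhibitor, was at least 9.50-fold higher with shROR2 and at least 7.01-fold higher with shLUC. Tcf7, a transcription factor of the pathway, was higher by 2.63 ± 0.24 and 2.73 ± 0.22, and Procr by 2.22 ± 0.22 and 2.31 ± 0.19, on the log2 scale.

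The median log2 difference, basal minus luminal, was 1.24 with shROR2 and 0.95 with shLUC over the other modulators, 1.30 and 1.29 over the receptors, -0.17 and -0.25 over the ligands, and 1.20 and 1.08 over the targets. Over all features it was -0.08 with shROR2 and -0.06 with shLUC. These medians include the genes dim in luminal cells.

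Between the hairpins, 1 of the 56 genes of the 4 lists in the fit was called, Tpbg in basal cells, where 0.965% of all features were called, so the count is near that share. Tpbg encodes a membrane glycoprotein that inhibits Wnt signalling at the receptor. Its signals were 2027, 2079.7 and 2054 in basal shROR2, against 3116, 3246 and 2944 in basal shLUC. The 3 shROR2 arrays lay close together and below all shLUC arrays. Tpbg fell by 0.51 on the log2 scale (SE 0.09, adjusted p = 0.0470). Its adjusted p was 0.0488 without basal shROR2 replicate 1, and it missed the threshold without any of the other 10 arrays (up to 0.157) and in 8 of 12 other ways of processing (up to 0.311).

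In the same comparison Sfrp5, another secreted Frizzled-related gene, gave 209.9, 144 and 159 in basal shROR2, against 287, 288 and 261 in basal shLUC. The log2 difference was -0.64 ± 0.15 (adjusted p = 0.0895). Lypd6 differed by -0.68 ± 0.16 (adjusted p = 0.0956) and Gpc3 by -0.45 ± 0.19 (adjusted p = 0.285). These 3 genes were named for their small p in this same comparison. Their arrays did not overlap, where 11.7% of all features did not overlap on the lower side, and none passed the test. In luminal cells none of the genes of the 4 lists was called.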

How the data were processed

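RNA of 11 sorted samples was amplified, labelled with Cy3 and hybridised to one-colour Agilent mouse arrays, per the labels' protocols. The deposited scanner files hold processed intensities, which Feature Extraction 11.0.1.1 background-corrected within each array, per the file headers. How the authors normalized the intensities of their value table is not stated in these sources. The columns of that table had medians of 88.8 to 89.3 and correlated on the log2 scale with the raw signals at 0.997 to 0.998. It is neither centred nor a ratio, and whether a background was subtracted is unknown.

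Spots of a probe were averaged and log2 intensities were centred on the 75th percentile of each array, which was 114 to 133. Probes were named through RefSeq (assembly GRCm38.p6, names only), and 26582 of 55681 had a symbol. A feature had to lie well above background on 3 of 11 arrays, and a gene was represented by its brightest probe. Means of the 4 groups were fitted with limma 3.58.1 in R 4.3.3 with data.table (version 1.17.8), and all p-values adjusted by Benjamini-Hochberg over all features come from it. Genes outside the fit were tested by exact permutation. The fit was also run on simulated data with the same spread in every group. The basal shROR2 arrays varied more than the others, so that run does not test the fit under such unequal spread. Figures used matplotlib 3.10.9 in Python 3.11.15. The number of arrays, their spread and, for dim probes, the signal over background limit the precision.

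The named genes were all 9 listed modulators, up to 4 genes by smallest p of each of 4 pathway lists where a member was called, the 2 closest profiles of each modulator, and Ror2. Members and lists were chosen with earlier results of these data known. Same-numbered samples of different groups did not deviate together (correlations -0.0374 to 0.0399), so the numbers were not used as pairs. Normexp was run on median signals in place of mean signals. Alternatives were scaling, background correction, filter, probe choice, groups fitted, array weights, slide or replicate number as a block, and leaving out each array.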

Additional observations from a re-analysis of the deposited data

How the results depend on the processing

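Under 23 alternatives (12 of processing and 11 that each left out an array), no called difference of a listed gene was reversed. The 6 calls between basal and luminal cells held except that of Sfrp1 with shROR2, which was lost when only the groups compared were fitted and without luminal shROR2 replicate 2. With probes required to be well above background on all 11 arrays, 3 genes were called with either hairpin, because 4 could be tested. None of the listed genes was called between the hairpins under any alternative. Among uncalled values the sign turned 3 times between the layers with shROR2, 11 times between the hairpins in luminal cells, 2 times in basal cells and 2 times for the difference of the effects.

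The background counts of called features moved more, and the cause was not tested. Between the hairpins in luminal cells (1 called feature), 0 were called with median scaling, the mean over probes, only the groups compared or the slide as a block, 3 with no filter, 4 with the filter on all arrays, 5 with quantile normalization, 21 in the authors' table, 22 with normexp and 62 with array weights. In basal cells (284), 0 were called with only the groups compared, 43 with array weights, 133 with the slide as a block, 135 with no filter, 476 with the filter on all arrays, 538 in the authors' table and 692 with normexp. For the difference of the effects (0), median scaling gave 1, quantile normalization 2, and the authors' table and normexp 7 each. Between the layers with shROR2 (6722), only the groups compared gave 2828. Array weights were 0.571, 0.261 and 0.478 in basal shROR2 and 1.14 to 1.54 elsewhere.

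Leaving out each array gave 5856 to 9605 called features between the layers with shLUC and 3779 (without luminal shROR2 replicate 1) to 7555 with shROR2, and 5 to 6 listed genes with shROR2. Between the hairpins it gave 0 to 10 in luminal cells, 18 (without basal shLUC replicate 1) to 901 (without basal shROR2 replicate 1) in basal cells, and 0 to 7 for the difference. Where a group kept 1 array, that array was assumed to vary like the others.

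With the replicate number as a block, 0 features were called between the hairpins in luminal cells and 37 in basal cells, and the block changed no call of a listed gene. Same-numbered samples share only a number. Normexp on mean signals was not run. Normexp on median signals and the fit of every probe were chosen after seeing the data. Signal over background limits Wif1, Sfrp1 and Dkk3 in luminal cells and Frzb and Dkk2 throughout.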
